A study of Mus musculus with 2254 samples.

Results

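A set of 7 solute carrier genes that are known from fibroblasts of the brain's coverings were followed through single cells sorted from mouse brain, out of 30950 genes in the count table: Slc6a13, Slc22a6, Slc13a4, Slc13a3, Slc6a20a, Slc22a2 and Slc47a1. They were picked by name, with earlier results of these data known. Their counts were read as CPM, counts scaled to a common library size in each cell (counts per 1e6). Fibroblasts were the 219 of 2252 kept cells with at least 300 CPM of Dcn and Col1a1 together, 154 labelled Notch3 KO and 65 labelled Notch3 WT. KO plates 043, 467 and 471 held 77, 44 and 33 of them, and WT plates 044, 468 and 469 held 16, 26 and 23. All cells, KO and WT alike, came from adult C57BL/6 mice carrying SM22-Cre and a Rosa26-stop-tdTomato reporter, in which a smooth muscle promoter switches on a red fluorescent protein, and were sorted by fluorescence into wells for Smart-seq2, a method that sequences full-length polyadenylated RNA of single cells. The allele behind the KO label, the sort gates and the animals behind each plate are not given in the sources used here. Each genotype therefore counted as 1 sample: no test between genotypes was made, plates are given side by side, and an SD over plates is only a description.

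Fibroblasts of the leptomeninges and of the perivascular spaces line the compartments that cerebrospinal fluid passes through, and they are known to carry transporters that also work in kidney tubules. Slc6a13 takes up GABA, taurine and betaine together with sodium and chloride. Slc22a6 exchanges organic anions, many drugs among them, for dicarboxylates, and Slc13a3 brings such dicarboxylates into the cell with sodium. Slc13a4 carries sulfate with sodium, and Slc6a20a carries imino acids such as proline. Slc22a2 lets organic cations into cells, and Slc47a1 is a proton-coupled antiporter that moves organic cations out of them. Lum encodes lumican, a small proteoglycan that binds collagen fibrils.

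Cell totals had a median of 291872 counts and ran from 49473 to 763059, and no pair of cells had identical counts. In cells that scored as smooth muscle-like, Notch3 itself had 66.3 to 117 CPM in KO plates, against 194 to 1107 CPM in WT plates, so in these cells the targeted gene went with the labels and was not at 0. In the fibroblasts, where Notch3 was low, it had 12.9, 19.6 and 10.9 CPM for KO plates 043, 467 and 471, against 7.36, 28.3 and 35.5 CPM for WT plates 044, 468 and 469, and the genotypes overlapped. WT plates 468 and 469 stood apart from the other plates: astrocyte-like cells made up 51.6% and 34.3% of their kept cells, against at most 0.541% elsewhere, and smooth muscle-like cells made up 8.56% and 15.0%, against at least 55.9% elsewhere. KO plate 043 and WT plate 044 carry low plate numbers and the other 4 plates carry high ones. The labels call neither set a batch.

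The gate was checked against a list of 8 fibroblast markers. Col1a2 was found in 95.9% of the 219 cells and Pdgfra in 64.4%, while Dpt, a fibroblast gene of many organs, was near 0 with a mean of 2.73 CPM. Of the 219 cells, 176 scored highest for the fibroblast list (124 KO and 52 WT), and 43 scored higher for another of the 12 marker lists. Those 43 were unlike between genotypes: 18 KO cells and 1 WT cell scored as smooth muscle, 10 KO cells and 1 WT cell as pericyte, and 0 KO cells and 10 WT cells as astrocyte, with 2 further cells scoring as macrophage and 1 as ependymal. A stricter set of 163 fibroblasts (114 KO and 49 WT) left out these cells and those with a second class of markers above the 99th percentile. It is called the strict set below. At the edge of the gate, 15 of the 219 cells lay between 300 and 500 CPM and 20 further cells lay between 200 and 300 CPM.

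Of the members, 5 were widespread in fibroblasts and the other two were found in a minority. At least 1 read was found in 75.8% of fibroblasts for Slc13a4, 69.4% for Slc6a20a, 68.5% for Slc13a3, 67.1% for Slc6a13 and 59.4% for Slc22a6, with 166, 152, 150, 147 and 130 cells out of 219. Slc22a2 was detected in 62 fibroblasts (28.3%) and Slc47a1 in 23 (10.5%). With each cell thinned to 50000 counts, the shares were 73.1%, 66.2%, 66.7%, 63.5%, 57.1%, 27.4% and 10.0% in the same order of genes. Where a member was present it was strongly present: the median among positive cells was 1296 CPM for Slc6a20a, 1059 CPM for Slc6a13, 999 CPM for Slc13a4, 770 CPM for Slc22a6, 765 CPM for Slc13a3, 380 CPM for Slc22a2 and 1496 CPM for Slc47a1. Per kilobase of exon, the pooled level was 275 CPM for Slc6a13, 219 for Slc6a20a, 176 for Slc13a4, 128 for Slc22a6, 118 for Slc13a3, 54.0 for Slc22a2 and 45.6 for Slc47a1. Neighbours in that order overlapped in their plate ranges, so the order is not firm beyond the spread over plates.

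The 7 genes lie on 6 chromosomes of GRCm38, with Slc6a13 (chr6:121300227-121337733, plus strand) and Slc13a4 (chr6:35267957-35308131, minus strand) on the same chromosome but far apart. Slc22a6 lies at chr19:8618039-8628299 (plus), Slc13a3 at chr2:165405028-165473230 (minus), Slc6a20a at chr9:123634770-123678885 (minus), Slc22a2 at chr17:12584132-12628488 (plus) and Slc47a1 at chr11:61343401-61378345 (minus). Reads of Slc6a20a are uncertain in part. Of its 50-base transcript words, 26.7% also occur in Slc6a20b or in Gm17120, an antisense gene whose exons overlap those of Slc6a20a by 563 bp, and without a stated strand setting such reads cannot be told apart. The share was 4.44% for Slc22a2, 0.140% for Slc6a13 and 0% for the other 4 members.

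RefSeq promoters, 250 bases before to 50 bases after the gene's start on GRCm38.p6, were on hand for 6 of the 7 members, Slc47a1 being the other. They were searched on both strands for a forkhead core (TAAACA), a nuclear receptor core (AGGTCA), an HNF1 core (GTTAAT) and a GC box (GGGCGG), and the 4 promoters below belong to members that were detected together in single fibroblasts. Capitals mark the GC box, read as CCGCCC where it lies on the other strand, and the HNF1 core.
Slc6a13, chr6:121300038-121300337, plus strand: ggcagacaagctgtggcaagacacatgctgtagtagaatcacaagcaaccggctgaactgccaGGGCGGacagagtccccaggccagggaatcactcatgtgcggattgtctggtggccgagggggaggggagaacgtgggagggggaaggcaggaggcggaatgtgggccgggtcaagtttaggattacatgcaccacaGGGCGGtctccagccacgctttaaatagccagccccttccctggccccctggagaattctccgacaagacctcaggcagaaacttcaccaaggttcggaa
Slc13a4, chr6:35308077-35308376, minus strand: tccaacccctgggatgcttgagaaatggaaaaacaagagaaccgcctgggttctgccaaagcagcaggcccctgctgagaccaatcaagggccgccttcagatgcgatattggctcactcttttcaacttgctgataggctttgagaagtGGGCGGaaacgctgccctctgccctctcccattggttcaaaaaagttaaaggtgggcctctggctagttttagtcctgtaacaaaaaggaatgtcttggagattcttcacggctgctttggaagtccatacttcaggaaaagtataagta
Slc22a6, chr19:8617746-8618045, plus strand: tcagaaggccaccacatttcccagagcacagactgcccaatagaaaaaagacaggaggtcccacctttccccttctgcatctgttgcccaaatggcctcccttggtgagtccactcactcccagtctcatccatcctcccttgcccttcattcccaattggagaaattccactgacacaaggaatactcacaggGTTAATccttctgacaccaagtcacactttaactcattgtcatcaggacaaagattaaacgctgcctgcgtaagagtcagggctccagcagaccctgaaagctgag
Slc6a20a, chr9:123678783-123679082, minus strand: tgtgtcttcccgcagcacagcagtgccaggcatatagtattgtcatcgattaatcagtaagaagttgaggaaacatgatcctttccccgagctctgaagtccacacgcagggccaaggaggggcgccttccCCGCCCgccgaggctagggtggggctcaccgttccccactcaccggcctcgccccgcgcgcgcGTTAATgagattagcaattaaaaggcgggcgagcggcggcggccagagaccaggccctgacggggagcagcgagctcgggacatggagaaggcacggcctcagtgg
The GC box was found 2 times in Slc6a13, 1 time in Slc13a4 and in Slc6a20a, 2 times in the Slc13a3 promoter (not shown) and 0 times in Slc22a6 and Slc22a2, and 35.9% of 27025 promoters hold it. GTTAAT occurred 1 time each in Slc22a6 and Slc6a20a and is held by 7.20% of promoters. TAAACA occurred 1 time, in Slc22a2, and is held by 13.4% of promoters. AGGTCA occurred in none of the 6 and in 16.0% of all promoters. No motif was shared by all members, and a match is a description of letters, not of a bound site.

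In the plates of both genotypes the widespread members were carried at more than 200 CPM. Slc6a13 stood at 734, 1025 and 803 CPM on KO plates 043, 467 and 471, and at 1033, 1023 and 386 CPM on WT plates 044, 468 and 469. Slc6a20a stood at 978, 1031 and 695 CPM on the KO plates, and at 1136, 905 and 549 CPM on the WT plates. For both of these genes the lowest plate was WT plate 469 and the genotypes overlapped. Slc13a4 stood at 885, 1002 and 856 CPM on the KO plates, and at 1089, 476 and 217 CPM on the WT plates. Slc13a3 stood at 744, 613 and 656 CPM on the KO plates, and at 829, 212 and 298 CPM on the WT plates. Slc22a6 stood at 525, 724 and 404 CPM on the KO plates, and at 777, 238 and 344 CPM on the WT plates. In these 3 genes WT plate 044 was above every KO plate and WT plates 468 and 469 were below every KO plate.

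**Figure D1:**
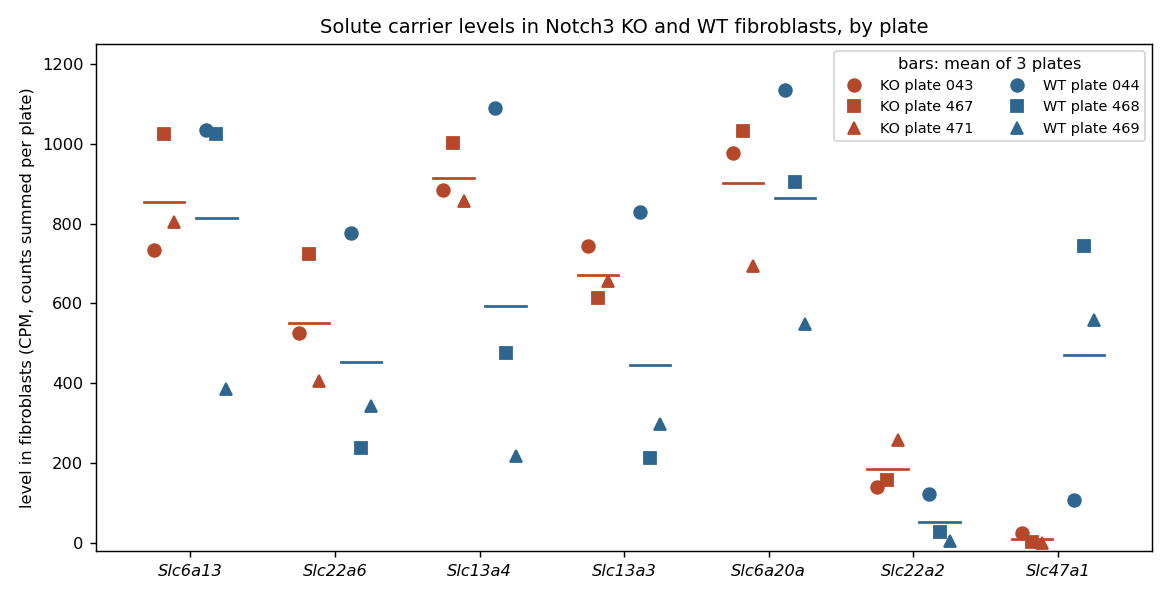
Level of each solute carrier in fibroblasts, in CPM from counts summed per plate. Each point is a plate (KO orange-brown on the left of each gene, WT blue on the right) and each bar is the mean of 3 plates; the first 5 genes overlap between genotypes, while Slc22a2 and Slc47a1 do not.

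Across genotypes, 2 of the 7 members met a size rule of at least 2-fold with no overlap between KO and WT plates, Slc22a2 higher and Slc47a1 lower in KO. Over all 11439 genes measured well enough, 6.6% met that rule, with 3.54% above WT in KO fibroblasts and 3.06% below. The rule works on the difference of the mean log2(CPM + 1) over plates, KO minus WT, and asks for a mean of at least 10 CPM and at least 1 read in 10% of the fibroblasts of a genotype. All 7 members passed that filter, Slc47a1 through its WT level alone. Slc22a2 passed the share of cells through KO alone, at 36.4% of KO and 9.23% of WT fibroblasts. The count of 2 members therefore supports nothing by itself. The differences of the other members were 0.19 for Slc6a13, 0.10 for Slc6a20a, 0.42 for Slc22a6, 0.83 for Slc13a3 and 0.92 for Slc13a4, and none of these met the rule. The median difference was 0.42 over the 7 members and 0.06 over all genes measured. In CPM, Slc13a4 averaged 914 ± 77.2 in KO and 594 ± 447 in WT, and Slc13a3 averaged 671 ± 66.9 in KO and 446 ± 334 in WT (SD over 3 plates each). WT plate 044 stood apart from the other two WT plates: without it, Slc13a4 (1.5) and Slc13a3 (1.41) were also higher in KO by the rule, where 19.3% of all genes met it, 8.16% of all genes on the higher side. Markers of some other classes moved with genotype in the same cells. Among all fibroblasts, only the smooth muscle and choroid plexus epithelium lists had no overlap between KO and WT plates. The pericyte, endothelial, macrophage or microglia, astrocyte, oligodendrocyte, oligodendrocyte precursor, neuron, ependymal and lymphocyte lists overlapped. For single genes, plates did not overlap in 12.1% of the 11439. The 7 smooth muscle markers, all detected, summed to 1803 to 2672 CPM in KO fibroblasts and 187 to 1631 CPM in WT fibroblasts, and in the strict set to 1424 to 1552 CPM in KO and 211 to 1148 CPM in WT. The 6 choroid plexus epithelium markers, all detected, summed to 325 to 329 CPM in KO and 111 to 219 CPM in WT, and in the strict set, with Otx2 at 0, to 320 to 359 CPM in KO and 134 to 215 CPM in WT. The 6 oligodendrocyte markers overlapped in the gate, at 108 to 222 CPM in KO and 186 to 507 CPM in WT. They did not overlap in the strict set, at 102 to 165 CPM in KO and 209 to 437 CPM in WT. Yet 0 fibroblasts scored highest for this list, which holds Cldn11, a gene that later paragraphs find in cells of high Slc47a1. Cldn11 by itself gave 22.1, 74.9 and 70.4 CPM for KO plates 043, 467 and 471. For WT plates 044, 468 and 469 it gave 91.7, 204 and 252 CPM. Whether the sums reflect oligodendrocytes was not tested. The part of these markers of other classes in the differences of the members was not tested.

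Slc22a2, the organic cation carrier, was higher in KO fibroblasts. It stood at 141, 158 and 259 CPM on KO plates 043, 467 and 471, and at 123, 27.9 and 4.24 CPM on WT plates 044, 468 and 469. Every KO plate was above every WT plate, but KO plate 043 and WT plate 044 were close to each other. The difference was 2.76 on the log2 scale, 6.78-fold, over all plates, and 0.19 between plates 043 and 044 alone, where only Slc47a1 of the 7 members met the rule, with 24.8% of all genes, 14.2% of all genes higher and 10.5% lower. Without WT plate 469, where 1 cell was positive, it was 1.59, and without WT plate 044 it was 3.87, both past the rule. Plate means were 186 ± 63.9 CPM in KO and 51.7 ± 62.8 CPM in WT (SD over 3 plates each). Reads of Slc22a2 were found in 56 of 154 KO fibroblasts (36.4%, exact 95% binomial interval 28.8% to 44.5%) and in 6 of 65 WT fibroblasts (9.23%, 3.46% to 19.0%). Such intervals cover counting error only. WT plates 468 and 469 had 1 positive cell each. In the strict set the difference was 2.67, and without cells of high Slc47a1 (next paragraphs) it was 2.43, both past the rule with 7.11% and 7.02% of all genes.

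The proton antiporter Slc47a1 went the other way. It stood at 24.7 and 1.84 CPM on KO plates 043 and 467 and at 0 counts on KO plate 471, which allows up to 0.257 CPM, and it stood at 108, 745 and 558 CPM on WT plates 044, 468 and 469. The difference was -6.42 on the log2 scale, and the lowest WT plate was above the highest KO plate. Reads were found in 6 of 154 KO fibroblasts (3.90%) and in 17 of 65 WT fibroblasts (26.2%). The 3 highest cells held 29.1% of the reads. At 100 CPM or more stood 18 fibroblasts, 3 KO cells, all on plate 043, and 15 WT cells, 2 on plate 044, 8 on plate 468 and 5 on plate 469.

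The 5 widespread members were found in the same single fibroblasts. All 5 were detected in 113 of 219 cells (51.6%, exact 95% binomial interval 44.8% to 58.4%), where the product of their single shares was 14.4%, and none of the 5 in 34 cells (15.5%), where the product was 0.312%. Between those ends lay 72 cells with 1 to 4 of them. The group of 5 was chosen after these values were seen, which builds in part of the excess over the product. The joint shares thus describe these cells and test nothing. Slc22a6 lay almost wholly inside Slc6a13: 127 of its 130 cells (97.7%) also had Slc6a13, and Slc13a4 was found in 146 of 150 cells with Slc13a3 (97.3%). Over the 10 pairs of the 5, Spearman's rho of log2(CPM + 1) over cells ran from 0.67 for Slc22a6 and Slc13a3, and for Slc13a3 and Slc6a20a, to 0.82 for Slc6a13 and Slc6a20a, with a median of 0.75. Within plates the median ran from 0.56 on WT plate 468 to 0.87 on WT plate 469. The cells share a plate and each cell's values share its total, so rho describes these cells and has no p. The strict set had a median of 0.67, and all 5 were found in 100 of its 163 cells (61.3%), where the product of the single shares was 27.5%.

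Co-detection was seen on every plate of both genotypes. All 5 members were detected in 58.4%, 61.4% and 54.5% of the fibroblasts of KO plates 043, 467 and 471, against 68.8%, 19.2% and 30.4% for WT plates 044, 468 and 469. None of the 5 was detected in 7.79%, 11.4% and 9.09% of them for the KO plates, against 6.25%, 30.8% and 47.8% for the WT plates. The genotypes overlapped in both shares, with WT plate 044 beyond every KO plate on one side and WT plates 468 and 469 on the other. The median rho over the 10 pairs was 0.71 in KO and 0.75 in WT. The fibroblasts that scored as another class carried the members less: all 5 were found in 4 of these 43 cells (9.30%), against 109 of the 176 that scored as fibroblasts (61.9%). Among them, 3 of 19 smooth muscle-scoring, 0 of 11 pericyte-scoring and 1 of 10 astrocyte-scoring cells had all 5. Their part in the KO and WT values was not tested beyond the strict set.

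**Figure D2:**
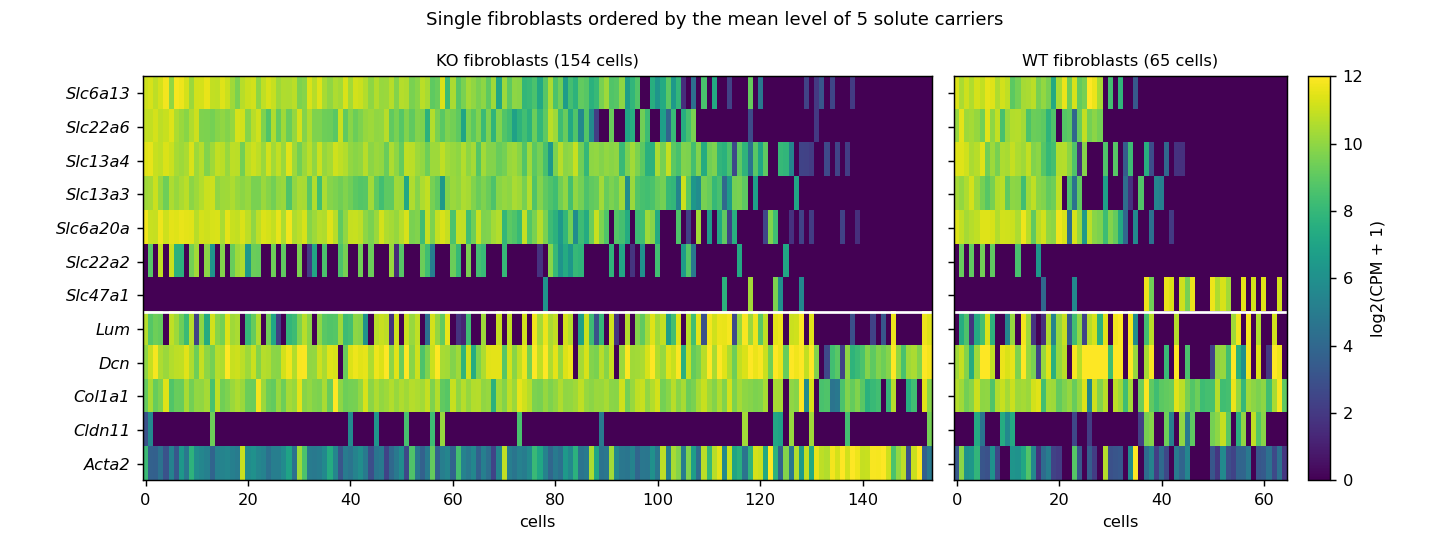
Each column is a fibroblast and each row a gene, coloured by log2(CPM + 1); KO cells are on the left and WT cells on the right, ordered by the mean level of the 5 widespread members, and the white line parts the 7 members from other genes. The 5 genes fade together; Slc47a1 lights up in cells where they are low, 15 of its 18 high cells being WT, and Acta2 is high among the KO cells at the low end.

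Slc22a2 sat inside the co-detected cells. Of its 62 positive cells, 52 (83.9%) had all 5 of the widespread members and 0 had none, against 61 of 157 cells without Slc22a2 (38.9%) with all 5. All 62 had Slc13a4, and 61 had Slc13a3. Its level followed the others loosely, with rho from 0.29 to Slc6a20a up to 0.51 to Slc22a6. Slc22a2 and Slc47a1 were never detected in the same fibroblast.

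Slc47a1 marked cells of another make-up. Among all kept cells, 26 had at least 100 CPM, 3 KO and 23 WT, and 19 of them had 1000 CPM or more, up to 3554 CPM. Only 4 cells scored as fibroblasts but missed the Dcn and Col1a1 gate, and all 4 were such cells, on WT plate 468, at 2908 to 3554 CPM. Of the 22 fibroblast-scoring cells with high Slc47a1, 13 had none of the 5 widespread members. Slc6a13, Slc22a6 and Slc13a3 were found in 1 cell each (4.55%), against 72.6%, 64.2% and 74.1% of the 201 other fibroblasts. In Slc6a13 the pooled level was 15.3 CPM in the 22 cells and 868 CPM in the 201 others. Pairs with Slc47a1 had rho from -0.35 to -0.21 over the 219 cells. The cut of 100 CPM was chosen after the values were seen, so these figures describe the cells and test nothing.

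What those 22 cells carried instead was read from a list of meningeal layer genes and a list of transporters known from brain barriers. Cldn11, a tight junction gene, was found in 19 of the 22 cells at 599 CPM, against 40.5 CPM in the 201 other fibroblasts. Cdh1, which encodes E-cadherin, was found in 9 of the 22 and in 1 of the 201. Both are known from the arachnoid barrier layer of the meninges. Dpp4, another gene of the layer list, went the other way. It was found in 1 of the 22 cells at 1.80 CPM and in 15 of the 201 others at 15.0 CPM. The layer that the 22 cells belong to was not tested. The matrix protein gene Mgp stood at 1420 CPM in the 22 cells, against 516 CPM in the 201 others. The fibroblast gene Pdgfra was found in 6 of the 22 (27.3%) and in 67.7% of the others, and Aldh1a2, which makes retinoic acid, in 3 of the 22 and in 79.6% of the others. A pair of layer genes did not part the cells in this way: Ptgds, a prostaglandin D synthase, was found in 90.9% of the 22 and 81.6% of the others, and Foxc1 in 95.5% and 80.6%.

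A part of the barrier list went with Slc47a1 and a part went the other way. Slc23a2, a vitamin C transporter, stood at 2218 CPM in the 22 cells and 104 CPM in the 201 others, and Slc4a10, a sodium bicarbonate transporter, at 1130 CPM and 9.84 CPM. The anion exchanger gene Slc26a7 stood at 733 CPM in the 22 and 1.91 CPM in the others, and the sulfate carrier gene Slc26a2 at 859 CPM and 24.0 CPM. Slc16a1, for monocarboxylates such as lactate, stood at 415 CPM and 14.6 CPM, and the drug efflux pump Abcb1a at 174 CPM and 5.35 CPM. Slco1a4, an organic anion carrier, and Slc7a11, the cystine and glutamate exchanger, went with the widespread members instead: they stood at 1.05 and 57.3 CPM in the 22 cells, against 240 and 1380 CPM in the others. Also lower in the 22 cells were Slc1a3 (15.0 against 408 CPM), Slc3a2 (185 against 945 CPM) and Slc2a1 (35.0 against 104 CPM). So were Abca8a (0.150 against 60.4 CPM), Slco1c1 (2.25 against 29.9 CPM), Abcc1 (10.7 against 21.8 CPM) and Slc7a5 (6.00 against 9.40 CPM). Genes of the barrier list not named as lower were higher in the 22 cells. Slc47a2, the close neighbour of Slc47a1 at a distance of 540 bp, was found in 10 of the 22 cells and in 3 of the 201.

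**Figure D3:**
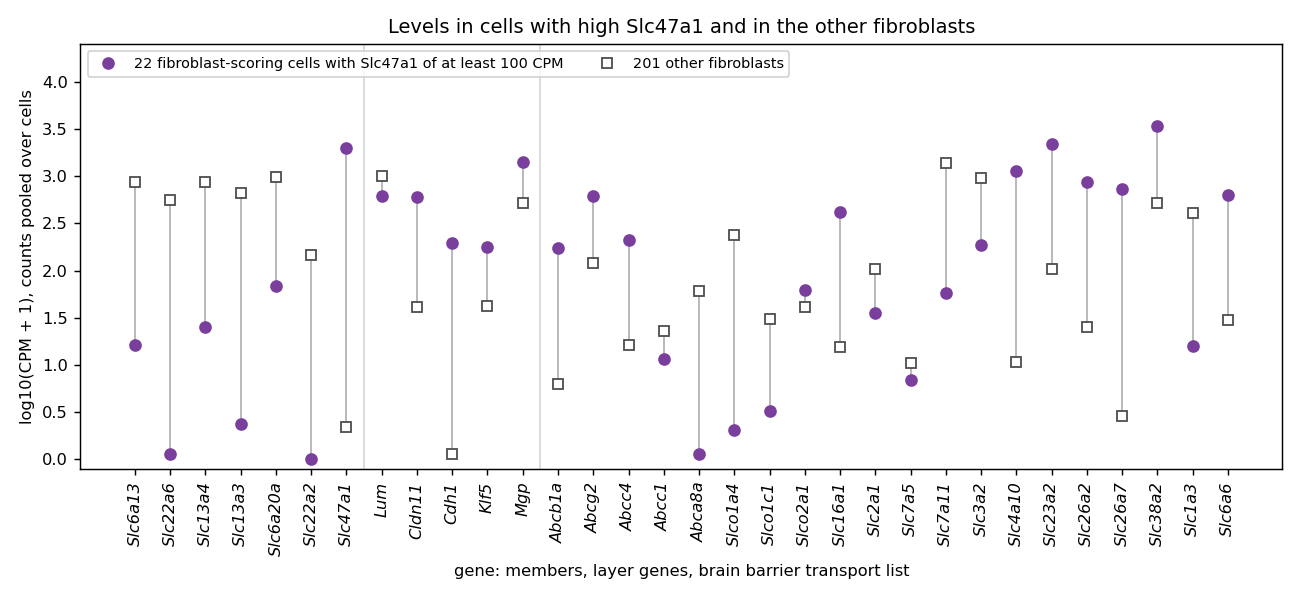
Pooled level, as log10(CPM + 1), in the 22 fibroblast-scoring cells with Slc47a1 of at least 100 CPM (filled circles) and in the 201 other fibroblasts (open squares), for the 7 members, 5 other genes and the 20 transporters of the barrier list. The first 6 members are lower in the 22 cells. Of the barrier list, Slc4a10, Slc23a2, Slc26a2, Slc26a7, Slc16a1 and Abcb1a are among the higher genes, and Slco1a4, Slc7a11, Slc1a3, Slc3a2, Abca8a and Slco1c1 are among the lower ones.

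Between genotypes, none of the 20 barrier transporters was higher in KO and 11 were lower, where 3.54% of all genes were higher and 3.06% lower. The median difference was -1.31, against 0.06 over all genes. Of the 11, Abcb1a, Slco1c1, Slc16a1, Slc4a10 and Slc26a7 averaged under 10 CPM in KO and passed the filter through WT alone, so the count over the genes that passed supports nothing by itself. Without the cells of high Slc47a1, 1 of 18 was higher (Slco2a1) and 3 were lower (Slco1c1, Slc2a1 and Slc6a6), with a median of -0.30 against 0.14 over all genes, of which 4.5% were higher and 2.52% lower. Slc26a7 had a difference of -5.90 with those cells and 0.83 without them, and Slc4a10 had -5.42 with and 2.18 without. In the 201 fibroblasts left, reads of these genes were found in 6 and 9 cells, at 1.91 and 9.84 CPM. The differences without those cells thus rest on few cells at low levels. Leaving out cells of high Slc47a1, which carried both genes, also fixes much of that change in advance. Slc23a2 stood at 53.1, 139 and 54.1 CPM on KO plates 043, 467 and 471, and at 237, 1044 and 884 CPM on WT plates 044, 468 and 469. Of the 24 layer genes, 23 were measured, and 0 were higher and 4 lower in KO, among them Cdh1 (-5.14, with 0.307 CPM in KO), Cldn11 (-1.76) and Fxyd5 (-1.18), beside the same 3.54% and 3.06% of all genes. Without the cells of high Slc47a1, 0 of 22 met the rule in either direction. In the strict set 1 was higher (Dpp4, at a WT mean of 0.195 CPM among all fibroblasts) and 3 lower, Cldn11 no longer among them. Without WT plate 044 there were 3 higher (Aldh1a2, Igfbp2 and Ngfr) and 4 lower, where 8.16% of all genes were higher and 11.1% lower. The Slc47a1 threshold was chosen after the values were seen, and the part of those cells in the differences was not tested further. The astrocyte markers, which share Slc1a3 with the barrier list, overlapped between genotypes, with WT plates 468 and 469 highest in the gate. The 7 astrocyte markers, all detected in the gate, had summed levels of 904 to 1029 CPM in KO plates, against 978 to 3857 CPM in WT plates, and levels of 876 to 1223 CPM in KO and 841 to 1352 CPM in WT in the strict set. In that set 0 barrier genes were higher and 9 lower, with 3.99% and 3.12% of all genes.

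Lum and the carriers were often found in the same fibroblasts, each being widespread on its own. Lum was detected in 67.6% of the 219 cells and 15.5% had none of the 5 widespread members, so much of the joint share follows from the single shares. Lum and at least 1 of the 5 widespread members were detected together in 138 of 219 fibroblasts (63.0%), the members alone in 47 and Lum alone in 10. The summed CPM of the 5 was above the Lum level in 152 cells and below it in 43. Over all 219 cells, rho of the mean log2 level of the 7 members to Lum was 0.10. In the KO group, plates 043, 467 and 471 gave 0.15, 0.05 and -0.36. In the WT group, plates 044, 468 and 469 gave -0.27, 0.61 and -0.29. It was -0.27 over the 176 cells that scored as fibroblasts, -0.24 in the strict set, -0.37 over cells with any Lum and -0.51 over cells with at least 100 CPM of Lum. Within the plates of the strict set it was -0.43, -0.25 and -0.64 for KO plates 043, 467 and 471, against -0.42, 0.48 and -0.43 for WT plates 044, 468 and 469. It was thus negative on 5 of 6 plates in the strict set and on 3 of 6 among all fibroblasts, and positive on WT plate 468 in both. The mean of the 5 widespread members alone had the same sign on every plate. On WT plate 469, however, it gave only -0.07 among all fibroblasts and -0.18 in the strict set, while Slc47a1 itself gave -0.44 and -0.62 there.

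In steps of Lum the 5 widespread members were highest in the middle, while 13 of the 18 fibroblasts of high Slc47a1 had no Lum. Slc6a13 had a median of 0 CPM in the 71 cells without Lum, 702 CPM in the 22 cells under 100 CPM of Lum, 1804 CPM in the 42 cells from 100 to 1000 CPM and 321 CPM in the 84 cells over 1000 CPM. Slc13a4 had medians of 2.24, 953, 1257 and 644 CPM in the same steps, and Slc6a20a had 0, 973, 1775 and 644 CPM. Both ends were lower than the step from 100 to 1000 CPM in each of these genes. Of the 71 cells without Lum, 32 scored as another class. In the strict set, the 38 cells without Lum still had a median of 725 CPM of Slc6a13, against 320.5 CPM in the 78 cells over 1000 CPM and 1846 CPM in the 31 cells between 100 and 1000 CPM. All 5 members were detected in 78.6% of the 42 cells from 100 to 1000 CPM of Lum and in 50.0% of the 84 cells above that. Dcn did not fall at high Lum: its median was 1759 CPM in the 42 cells and 2860 CPM in the 84 cells.

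**Figure D4:**
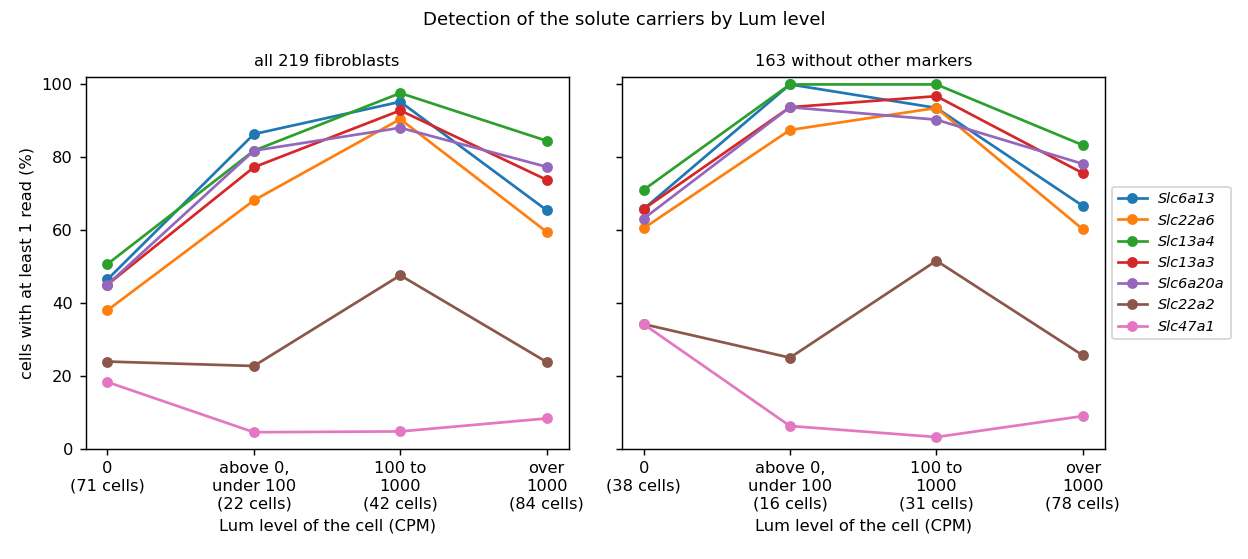
Percent of fibroblasts with at least 1 read of each solute carrier (y axis) in steps of the cell's Lum level (x axis), for all 219 fibroblasts on the left and the 163 of the strict set on the right. Detection of the 5 widespread members peaks at intermediate Lum, at 88.1% to 97.6% of the 42 cells from 100 to 1000 CPM on the left, and Slc47a1 is most often found where Lum is 0.

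The differences between genotypes were also read within steps of Lum, which left 3 KO and 2 WT plates in each. Under 100 CPM of Lum, Slc6a13 (1.03), Slc13a4 (1.32), Slc13a3 (1.4) and Slc22a2 (5.99) were higher in KO, and Slc47a1 was lower, at 0 counts in KO and 1003 CPM in WT. In that step 23.9% of all genes met the rule. At 100 CPM of Lum or more, Slc22a2 (1.16) was higher and Slc47a1 (-4.61) lower, with 14.9% of all genes, 4.37% of all genes on the lower side, and the differences of Slc6a13 (-0.81) and Slc6a20a (-0.57) did not meet the rule. The WT plates were 468 and 469 in the first step and 044 and 468 in the second, so step and plate cannot be told apart.

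The genes most like the 7 carriers over the 219 fibroblasts were sought among 9974 others found in at least 20% of them. Highest was Gm17120, the antisense gene inside Slc6a20a, with a rho of 0.80 to the mean log2 level of the 7, and reads in the 563 of its 743 exon bases that overlap Slc6a20a cannot be told apart from those of Slc6a20a. Next came Aebp1 (0.79), a collagen-binding protein gene, Igfbp2 (0.79), which encodes a binding protein of insulin-like growth factors, Slc7a11 (0.77), Aldh1a2 (0.77), the adhesion gene Alcam (0.77), the growth factor gene Igf2 (0.74), Ccr9 (0.73), whose exons overlap Slc6a20a by 22 bp, Atp1b3 (0.73), a subunit of the sodium pump, and Ranbp3l (0.73). None of these 10 met the size rule between genotypes. Within single plates the rho of Igfbp2 ran from 0.49 to 0.86 and that of Alcam from 0.37 to 0.81. The median over all 9974 genes was 0.05, and 86 of them (0.862%) reached 0.5. In the strict set, 6 of the 10 were again among the 10 highest.

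At the other end stood Mfrp (-0.52), C1qtnf5 (-0.52), Arhgdib (-0.52), Fhl1 (-0.51), Gm20444 (-0.51), Igfbp7 (-0.51), the Notch target Hes1 (-0.50), Dmd (-0.49), Pde6h (-0.48) and Col8a1 (-0.47). Mfrp, C1qtnf5 and Gm20444 overlap each other in their exons and count as 1 signal. Dmd, which encodes dystrophin, was 1 of the 10 and alone among them to meet the size rule, at a difference of 1.17. This end depended on the cells: 2 of the 10 were again among the 10 lowest in the strict set, where Mgp (-0.63), Ltbp4 (-0.62) and Htra3 (-0.61) stood lowest. Of the layer list, 19 genes were found in at least 20% of fibroblasts, with a median rho of 0.21, and 6 of them reached 0.5: Aldh1a2, Crabp2 (0.64), Ptgds (0.70), Igfbp2, Bmp7 (0.60) and Igf2. Below 0 were 5 of them, Mgp at -0.39 and S100a6 at -0.33 among them. Of the barrier list, 12 passed that share, with a median of 0.06, and 3 reached 0.5: Slc7a11, its partner chain Slc3a2 (0.66) and Slco1a4 (0.56).

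Of the close relatives of the carriers, a minority reached 10 CPM in fibroblasts. The table held 51 genes of the Slc6a, Slc13a, Slc22a and Slc47a families. Of the 44 that were not members, 16 reached 10 CPM, 28 did not, and 8 had 0 counts in fibroblasts. The filter of the size rule was passed by 16 of the 44, beside 11439 of all 30950 genes. A low level is thus not particular to these relatives. Of the members, 4 have a relative on the same strand within 6203 bp. Slc22a8, an organic anion carrier 6203 bp from Slc22a6, stood at 364 CPM, with reads in 59.4% of fibroblasts. Slc6a12, a betaine and GABA carrier 5342 bp from Slc6a13, stood at 33.9 CPM, and Slc6a20b, 2204 bp from Slc6a20a, at 17.1 CPM. Slc22a3, an organic cation carrier 76427 bp from Slc22a2, stood at 6.91 CPM. Between genotypes, 0 of the 16 relatives measured well enough were higher and 3 were lower in KO, beside 3.54% and 3.06% of all genes, among them Slc6a9 (-1.48), a glycine carrier, and the taurine carrier Slc6a6 (-4.24). In the strict set Slc6a6 alone was lower (-5.56), while Slc6a9 (-0.70) did not meet the rule. Without WT plate 044 there were 1 higher and 9 lower, beside 8.16% and 11.1% of all genes. Of those 9, Slc6a11, Slc47a2 and Slc13a5 averaged 2.11, 0.288 and 0 CPM in KO and passed the filter through WT alone. The count of 9 therefore supports nothing by itself.

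Outside fibroblasts, in counts pooled over plates, each member except Slc6a20a was below its fibroblast level in all 7 other classes. That held for 6 of 7 members and for 10.5% of 10999 genes. The 5 members Slc6a13, Slc22a6, Slc13a4, Slc22a2 and Slc47a1 were at least 10-fold above every other class, which was true of 0.836% of those genes. The members were picked as genes known from fibroblasts, with earlier results of these data known. Their counts beside these shares of all genes therefore support nothing by themselves. For Slc13a4 the 10-fold lead held for counts pooled over plates: its mean over plates with at least 10 cells of the class was 754 CPM in fibroblasts and 89.7 CPM in ependymal-like cells, and WT plate 469 alone had 217 and 145 CPM. Slc22a6 was the most restricted, at 509 CPM in fibroblasts and at most 0.491 CPM elsewhere. Slc47a1 stood at 154 CPM in fibroblasts and at most 2.26 CPM elsewhere, though 4 cells of high Slc47a1 that scored as fibroblasts lay outside the gate and in no class. Smooth muscle-like cells, whose median total of 289878 counts was near the 306684 of fibroblasts, give the background of the method. At least 1 read was found in 5.51% of those 1144 cells for Slc6a13, 5.86% for Slc22a6, 8.83% for Slc13a4, 5.16% for Slc13a3, 2.01% for Slc22a2 and 1.14% for Slc47a1, at 0.295 to 1.49 CPM.

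In counts pooled over plates, 3 members reached 56.6 CPM or more in another class. Below that, Slc6a13 had 34.5 CPM in pericyte-like cells, with 98.6% of its counts in the 3 highest cells. Slc13a3 had 43.6 CPM in macrophage or microglia-like cells and 29.7 CPM in pericyte-like cells, with 75.0% and 99.3% in the 3 highest cells. Slc6a20a stood at 894 CPM in fibroblasts and 1450 CPM in the 33 pericyte-like cells, 30 of which had at least 1 read. It stood at 992 and 584 CPM in 7 and 4 pericyte-like cells of KO plates 043 and 471, and at 608, 2022 and 1700 CPM in 2, 13 and 7 pericyte-like cells of WT plates 044, 468 and 469, numbers too small for a comparison of genotypes. Fibroblasts had 978 and 695 CPM on the same KO plates, and 1136, 905 and 549 CPM on the WT plates. Pericyte-like cells were thus above fibroblasts on WT plates 468 and 469 and close to them on KO plate 043. They were below fibroblasts on KO plate 471 and WT plate 044. Smooth muscle-like cells had 56.6 CPM of Slc6a20a, with reads in 22.0% of them. Slc13a3 stood at 615 CPM in fibroblasts and 290 CPM in the 325 astrocyte-like cells, 72.9% of which had a read. Nearly all astrocyte-like cells came from WT plates 468 and 469, at 303 and 282 CPM. The fibroblasts of WT plates 468 and 469 had 212 and 298 CPM of Slc13a3. The pooled lead of fibroblasts was thus reversed on WT plate 468 and small on WT plate 469. Slc13a4 stood at 796 CPM in fibroblasts and 75.4 CPM in the 197 ependymal-like cells, 43.1% of which had a read. In those cells it had 150, 56.3 and 46.4 CPM for KO plates 043, 467 and 471, against 40.4, 51.1 and 145 CPM for WT plates 044, 468 and 469, and the genotypes overlapped. All 5 widespread members were found in 1 of 33 pericyte-like cells, 2 of 1144 smooth muscle-like cells and 0 of 180 endothelial-like, 325 astrocyte-like and 197 ependymal-like cells. The relative Slc22a8 differed from its neighbour Slc22a6, at 1072 CPM in endothelial-like and 504 CPM in pericyte-like cells.

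**Figure D5:**
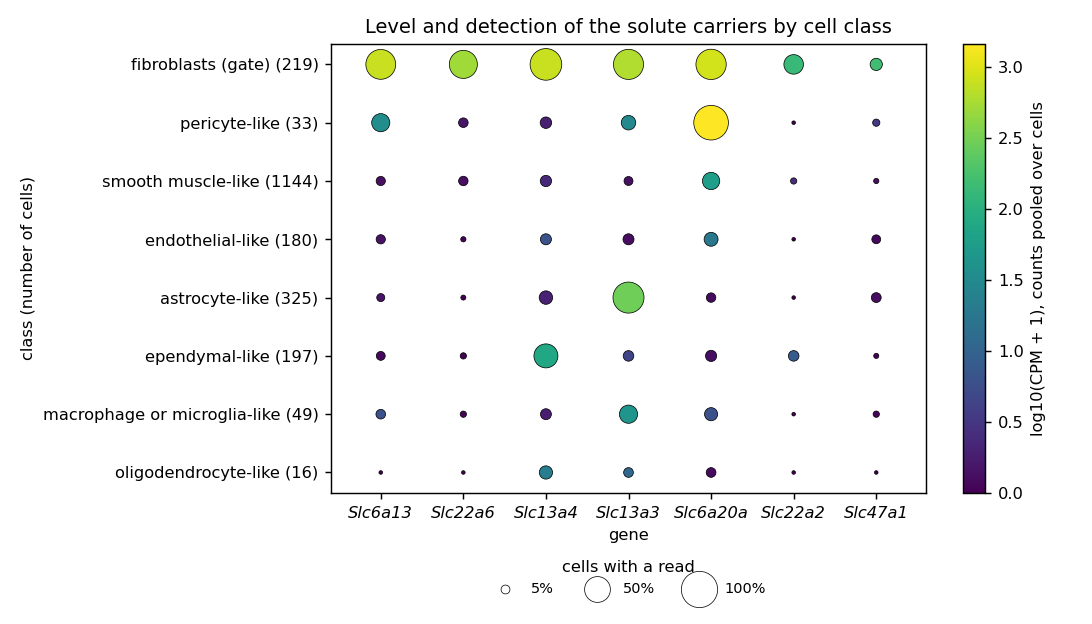
Level and detection of the 7 solute carriers in fibroblasts and in 7 other cell classes, with the number of cells in brackets; colour gives log10(CPM + 1) of pooled counts and the area of a circle gives the percent of cells with at least 1 read. In counts pooled over plates, fibroblasts lead for every gene but Slc6a20a, which is highest in pericyte-like cells at 1450 CPM. Within single plates the order of classes was not the same throughout for Slc13a3 and Slc6a20a.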

How the data were processed

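Smart-seq2 libraries of single cells from 6 plates, 3 per genotype, were read from a table in which the authors deposited raw counts per gene symbol and cell. Per the submitters' processing notes, TopHat2 2.1.1, SAMtools 0.1.18 and featureCounts of Subread 1.4.6-p5 were used with GRCm38 (mm10); the annotation, strand setting and any earlier cell filter are not given in the sources used here. Unstranded counting would add antisense reads to a gene, and multi-copy reads could be lost or split. Of 2254 cells, 2 were left out for under 50000 counts or under 1000 genes. Counts were divided by the cell's total, and per plate they were summed first. The reads carry no molecular identifiers, so intervals (exact, 95%) and the floor of 3 counts cover counting error only. Classes other than fibroblasts were named "-like" from the best of 12 marker lists, with a margin of 1 in mean log2(CPM + 1) and at least 3 markers found; 89 cells fell in no class. Doublets were not called; the strict set left out cells with a second class of markers.

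KO and WT were compared over plates by a rule of size, with no p-value, since the labels name no animals. Plates may come from the same animals. Named genes were the 7 members, the 10 genes of highest and the 10 of lowest rho to their mean, neighbours in the genome, and list members past the rule. The members and the lists were chosen with earlier results of these data known. The group of 5 members detected together and the Slc47a1 threshold of 100 CPM were chosen after these values were seen. Gene lengths and exon overlaps came from GENCODE M21, which matched 27956 of 30950 entries (90.3%). Some genes of these lists are counted but not reported by name here. The steps were checked on simulated counts. Python 3.11.15, numpy 2.4.6, pandas 2.3.3, scipy 1.17.1, matplotlib 3.10.9, R 4.3.3 and edgeR 4.0.16 (TMM scaling, an alternative only) were used.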

Additional observations from a re-analysis of the deposited data

How the results depend on the processing

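The directions of Slc22a2 and Slc47a1 held in all 22 alternatives tried (other gates, scalings, pseudocounts, thresholds, plates and Lum steps), and each met the rule in 21 of them; Slc22a2 ran from 0.19 to 5.99 on the log2 scale and Slc47a1 missed the rule (-0.27) without its own high cells, a setting that fixes that outcome by its construction. The sign of Slc6a13 held in 17 and that of Slc6a20a in 15. The number of members that met the rule was 2, and it was 1 for plates 043 and 044 alone, 4 for plates 467, 468, 469 and 471, 5 under 100 CPM of Lum, 1 without cells of high Slc47a1, and 2 to 4 when a plate was left out, with the 4 reached without WT plate 044. The share of all genes that met it was 6.6%, and it was 4.4% with a pseudocount of 10 CPM, 10.0% at 1.5-fold, 24.8% for plates 043 and 044, 21.5% for the other 4, 23.9% under and 14.9% over 100 CPM of Lum, and 9.19% to 19.3% when a plate was left out. The Spearman correlation of the members' mean level with Lum was 0.10, and it was -0.37 in cells with Lum, -0.36, -0.27, 0.61 and -0.29 within plates 471, 044, 468 and 469, and 0.02 to 0.17 when a plate was left out. With the gate at 1000 and at 100 CPM it was -0.21 and 0.36. The cause was not tested. The share of fibroblasts with all 5 widespread members ran from 41.4% to 61.3% over the gates. No paired analysis was possible because the labels give no replicate number that the genotypes share and no result came from a test. With 3 plates a genotype and 16 fibroblasts on the smallest plate, a difference in a gene found in few cells rests on few cells, and a lack of reads at this depth is not a lack of expression. Genotype cannot be told apart from plate, animal or sort.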
